A study of Mus musculus with 4 samples.

Results

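Among the TCF7L2 peaks of the neonatal mouse ventricle, 253 of 774 met both a GATA4 peak and a peak of acetylated chromatin. They were chosen by position alone: a TCF7L2 peak counted when it shared 1 bp or more with a GATA4 peak and 1 bp or more with a peak of H3K27ac. The share over the whole TCF7L2 list, 32.7%, is fixed by this choice and is given as a description. Below, these 253 are called shared acetylated peaks. The other TCF7L2 peaks fall into 392 in H3K27ac without GATA4, 61 with GATA4 outside H3K27ac, and 68 with neither.

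The chromatin came from cardiac ventricles of wild-type C57BL/6 mice at postnatal day 6, with no treatment in any group. Each immunoprecipitation drew on 10 pooled hearts and 2 µg of antibody, and fragments averaged 300 bp. The labels give 2 biological replicates for each antibody, yet 1 peak list per antibody was analysed, so no value has an error between animals. The 3 lists hold 774 TCF7L2, 10530 GATA4 and 75011 H3K27ac peaks, without height, score or read count, and the depth behind a peak is unknown. Whole ventricles contain muscle, connective tissue, vessel and blood cells. An overlap therefore says that both proteins were called at 1 place in the pooled tissue, not that they sat on the same chromosome copy or in the same cell. Whether the tissue shows its expected marker genes was not checked, because regions were not assigned to genes here.

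TCF7L2 is one of the TCF/LEF factors, which bind DNA through an HMG box and carry the output of canonical Wnt signalling. When Wnt ligands stabilise beta-catenin, it binds TCF7L2 on the DNA and target genes are activated, and without it TCF7L2 can sit with co-repressors of the Groucho/TLE family. GATA4 is a zinc-finger factor that binds the GATA motif and is needed for heart development and for gene expression in heart muscle cells. H3K27ac, acetylation of lysine 27 on histone H3, is laid down by p300 and CBP and marks active promoters and enhancers. Regions that carry a signalling factor together with a tissue factor and this mark are commonly studied as candidate enhancers. Positions below are 1-based in mm9.

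The 10 widest shared acetylated peaks show how differently GATA4 can lie on a broad TCF7L2 peak. Width is the only size the lists give for a peak. In 6 of the 10 the GATA4 peak was a narrow interval wholly inside the TCF7L2 peak and covered less than 50% of it. At chr19:6141027-6141610, 584 bp of TCF7L2 held a GATA4 peak of 125 bp, 21.4% of its length. That is the most common width in the GATA4 list, held by the GATA4 peak of 22 of the 253 pairs. Similar inner GATA4 peaks covered 36.1% of chr5:139874259-139874917, 39.3% of chr19:4793817-4794429, 37.35% of chr17:56601502-56602082 and 45.85% of chrX:98727814-98728391. At chr14:61664853-61665558 the GATA4 peak covered 157 of 706 bp and lay to one side, its midpoint 260.5 bp from that of TCF7L2. At chr10:126748747-126749484 GATA4 reached beyond one end of TCF7L2 and covered 543 of 738 bp. The opposite case was chr17:34740535-34741253, where GATA4 spanned 718 of 719 bp and both peaks began at the same base. At chr11:86921999-86922710 GATA4 was the wider of the pair, with 833 bp against 712 bp, and the peaks were displaced by 225.5 bp. The widest peak of all, chr11:98448537-98449691 with 1155 bp, carried separate GATA4 peaks of 510, 132 and 203 bp under its left part, centre and right part, which together covered 48.05% of it.

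**Figure D1:**
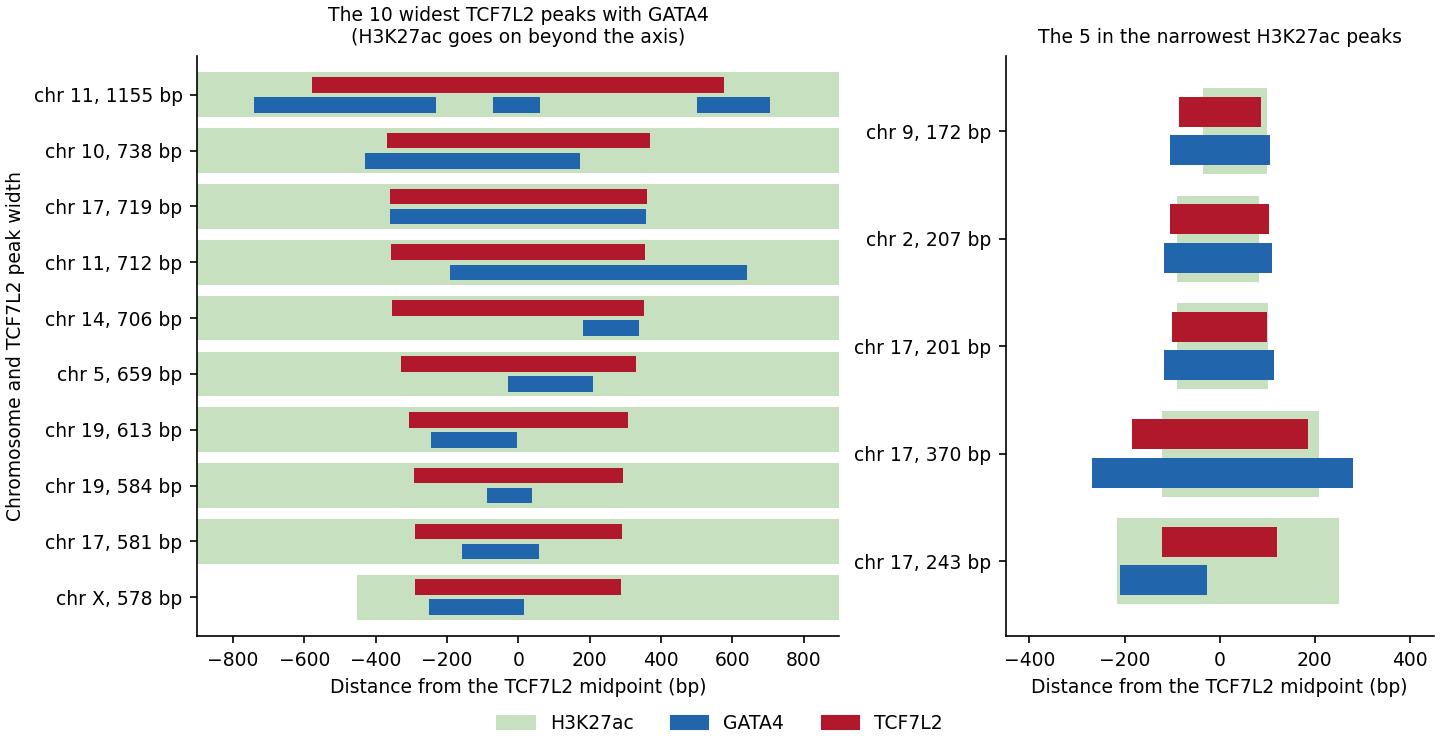
Extent of TCF7L2 (red), GATA4 (blue) and H3K27ac (green) at the 10 widest shared acetylated peaks (left) and at the 5 in the narrowest H3K27ac peaks (right), in bp from the TCF7L2 midpoint; row labels give the chromosome and the TCF7L2 width, and bars end at the axis limits where H3K27ac goes further. On the left GATA4 varies from 125 bp inside a TCF7L2 peak of 584 bp to 3 separate peaks on chromosome 11. The width of 125 bp is the most common in the GATA4 list. On the right TCF7L2 and GATA4 are nearly centred on each other in 4 of the 5 rows, with H3K27ac off centre in some of them.

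Across all 253, TCF7L2 and GATA4 lay close together but seldom had the same outline. Their midpoints were a median of 58.0 bp apart, with quartiles of 24.5 and 114.5 bp and a largest distance of 485.5 bp. As a share of the largest distance at which 2 such peaks could still touch, the median was 23.65%, where any overlapping pair lies below 100% by construction. A midpoint distance of up to 50 bp was found in 115 shared acetylated peaks, 45.45% (95% Wilson interval 39.4 to 51.6, counting error over peaks only), and one over 200 bp in 20, or 7.91%. Among the 61 pairs outside H3K27ac, 49 were within 50 bp, 80.3%, and 1 was over 200 bp apart, 1.64%. Over all 314 TCF7L2 peaks with GATA4 the median distance was 45.5 bp, so closeness is not particular to the 253. The TCF7L2 midpoint itself fell inside the GATA4 peak in 204 of the 253, 80.6%, and in 57 of the 61, 93.4%. Among the 253, GATA4 was centred at the higher coordinate in 129 cases, at the lower in 123, and at the same place in 1. No strand, motif or gene gave a direction, so this split cannot show whether a side was preferred.

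The overlapping part had a median length of 159 bp. It made up a median of 79.8% of the TCF7L2 peak and 66.7% of the GATA4 peak. In 82 cases, 32.4%, TCF7L2 lay entirely inside GATA4, in 44, 17.4%, GATA4 lay entirely inside TCF7L2, and in the other 127 each reached beyond the other. Among the 61 pairs outside H3K27ac, TCF7L2 lay entirely inside GATA4 in 36, 59.0%, and GATA4 inside TCF7L2 in 9, 14.75%. Of the 253 pairs, GATA4 was the wider peak in 145. The widths were nearly unrelated among the 253 pairs, with a Spearman rho of 0.071 and a Pearson r of 0.10. This correlation is a description across peaks that share 1 library per factor. A shared acetylated peak could thus be a narrow TCF7L2 peak on a broad GATA4 peak or the reverse, and in 75 pairs one width was at least 2 times the other.

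In the 61 TCF7L2 peaks with GATA4 outside H3K27ac the outlines of the factors matched more often. There the midpoints were a median of 11.0 bp apart, with quartiles of 2.5 and 36.5 bp. Borders of TCF7L2 and GATA4 lay within 10 bp of each other at both ends in 17 of these 61, 27.9% (18.2 to 40.2), and in 2 of the 253 shared acetylated peaks, 0.791% (0.217 to 2.84). Over all 314 TCF7L2 peaks with GATA4 that share was 6.05%. The tolerance of 10 bp was chosen after the values were seen. The difference was not tested, since each list is a single one and tests over peaks were not made. Outside H3K27ac the widths also resembled each other more often: they were within 25 bp of each other in 30 of 61 pairs, 49.2%, against 29 of 253, 11.5%. One 100 kb window, chr8:57900001-58000000, held 5 of the 61, and the next fullest window held 2. Without it the median distance was 9.5 bp and the share with both borders matching 30.4%. Of the 17 with both borders matching, 1 on chromosome X had 96 bp in both lists. Another, on chromosome 18, had 27 bp of TCF7L2 and 31 bp of GATA4. Both are narrower than the most common width of 125 bp in either list, and they were not left out.

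**Figure D2:**
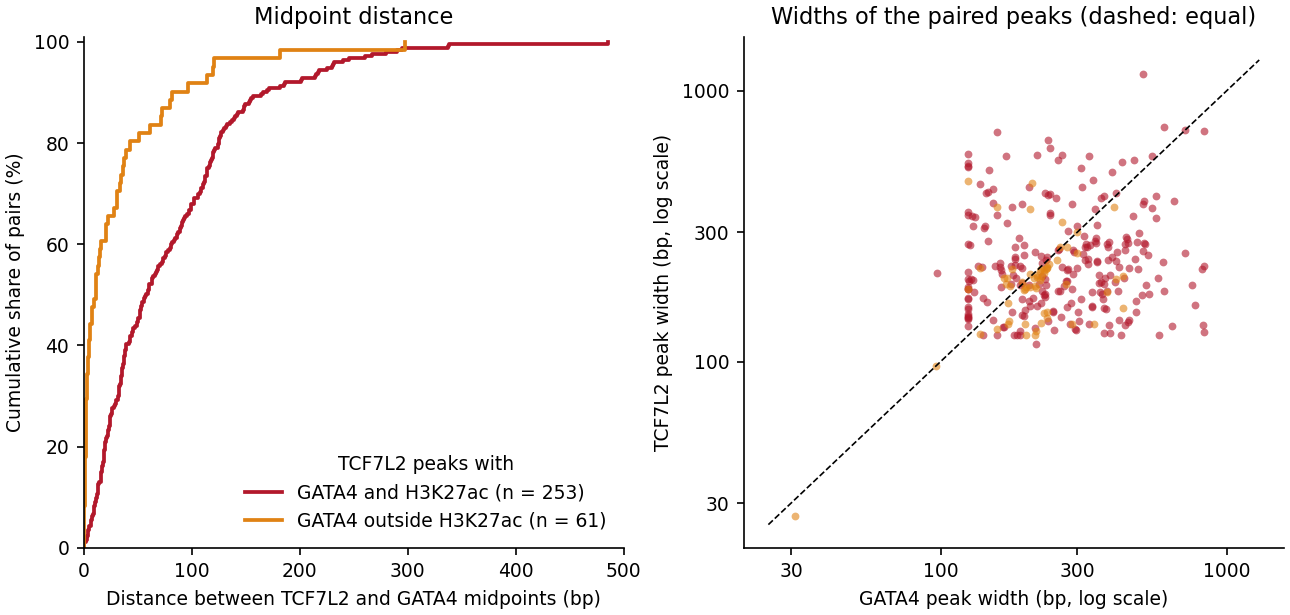
Left, cumulative share of TCF7L2 and GATA4 pairs against the distance between their midpoints in bp, for the 253 shared acetylated peaks (red) and the 61 pairs outside H3K27ac (orange); right, the TCF7L2 width against the GATA4 width of each pair, both on log scales, with a dashed line of equal widths. The orange curve rises faster, with a median of 11.0 bp against 58.0 bp, and many orange points lie near the dashed line while the red points scatter widely.

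The shared acetylated peaks with the nearest midpoints were of both kinds. At chr7:82993044-82993246 a GATA4 peak of 183 bp lay exactly centred in 203 bp of TCF7L2, the single case with a distance of 0. It was 642.5 bp from the border of an H3K27ac peak of 9.36 kb. At chr1:135027656-135027804, with 149 bp of TCF7L2 inside 193 bp of GATA4, the midpoints were 3.0 bp apart in an H3K27ac peak of 7.85 kb. At chr4:148697822-148698044 the GATA4 peak of 420 bp was much the wider, with 223 bp of TCF7L2 centred 4.5 bp from its midpoint. At chr2:128643475-128643702 the midpoints were 4.0 bp apart, close to the middle of an H3K27ac peak of 4.68 kb. At chr11:95685065-95685518 a GATA4 peak of 137 bp lay 3.5 bp off the centre of 454 bp of TCF7L2, in an H3K27ac peak of 24.9 kb with 3 TCF7L2 peaks. At chr11:102110078-102110306 TCF7L2 lay inside 327 bp of GATA4 with 4.0 bp between midpoints, and shared only 62 of its 229 bp with H3K27ac.

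Other closely centred pairs sat in H3K27ac peaks no broader than the factor peaks themselves. At chr9:88448025-88448196 the H3K27ac peak was 133 bp wide and the factor midpoints were 0.5 bp apart. At chr2:60240753-60240959 it was 173 bp wide with a distance of 3.0 bp, and at chr17:56339372-56339572 it was 192 bp wide with a distance of 2.0 bp. At chr17:4626185-4626554, 329 bp of H3K27ac lay under 370 bp of TCF7L2 and 549 bp of GATA4, with 6.5 bp between the factor midpoints. The fifth narrowest, of 468 bp at chr17:4974920-4975162, was different: its factor midpoints were 118.5 bp apart. In all, 6 shared acetylated peaks had an H3K27ac peak under 500 bp, with a median midpoint distance of 4.75 bp and a range of 0.5 to 118.5 bp. The 5 in H3K27ac peaks of 500 bp to 1 kb had a median of 75.5 bp, so the short distances did not extend to these. Groups this small, picked after the values were seen, support no statement on the 253. The 242 in H3K27ac peaks of 1 kb or more had a median distance of 59.25 bp.

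Nearly every shared acetylated peak met a single GATA4 peak, 249 of the 253. Besides the widest peak on chromosome 11 with 3, there were 3 with 2 GATA4 peaks each. At chr9:106794336-106794778 GATA4 peaks of 222 and 204 bp shared 169 and 204 bp with 443 bp of TCF7L2. At chr8:129260267-129260687 GATA4 peaks of 465 and 411 bp shared 32 and 325 bp. At chr17:57129442-57129634 GATA4 peaks of 169 and 176 bp met the opposite ends of a TCF7L2 peak of 193 bp, sharing 63 and 72 bp.

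The reverse also occurred, with 2 TCF7L2 peaks on 1 GATA4 peak. At chr16:42875536-42875761 and chr16:42875826-42875954, TCF7L2 peaks of 226 and 129 bp were 64 bp apart and both lay inside a GATA4 peak of 832 bp. On X, the peaks at chrX:7829524-7829681 and chrX:7829737-7829864, 55 bp apart, shared a GATA4 peak of 374 bp. These were the only H3K27ac peaks to hold 2 shared acetylated peaks. The 253 thus came from 251 H3K27ac peaks, and they met 256 GATA4 peaks in all, 2.43% of the GATA4 list. Elsewhere they were far apart: the gap to the next one had a median of 1857 kb, and 18 of the 253 had another within 100 kb.

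Of the 4 classes of TCF7L2 peaks, the shared acetylated ones had the highest median width. It was 222 bp, with quartiles of 171 and 292 bp, against 190.5 bp (151 and 257.5 bp) in H3K27ac without GATA4, 200 bp (152 and 220 bp) with GATA4 outside H3K27ac and 164.5 bp (134.8 and 201.5 bp) with neither. Over the whole list the median was 198.5 bp. The ranges overlap almost completely, from 116 to 1155 bp in the shared acetylated class and from 29 to 812 bp in H3K27ac without GATA4. A width of 300 bp or more was found in 62 of the 253, 24.5% (19.6 to 30.2), and in 67 of the 392, 17.1% (13.7 to 21.1). These intervals overlap. In the other classes it was 7 of 61 with GATA4 outside H3K27ac, 11.5%, and 4 of 68 with neither, 5.88%. The most common TCF7L2 width of 125 bp was held by 7 of the 253 (2.77%) and 29 of the 392 (7.40%). A wide peak meets another list more readily, so width is not independent of how these peaks were chosen, and no test was made.

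Among all acetylated TCF7L2 peaks, 39.2% (35.5 to 43.05) had GATA4, and the share went up with TCF7L2 width. In the narrowest quartile, from 29 to 156 bp, 47 of 163 had GATA4, 28.8% (22.4 to 36.2). It was 40.0% in each of the middle quartiles, and 76 of 157, 48.4% (40.7 to 56.2), in the broadest, from 272 to 1155 bp.

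**Figure D3:**
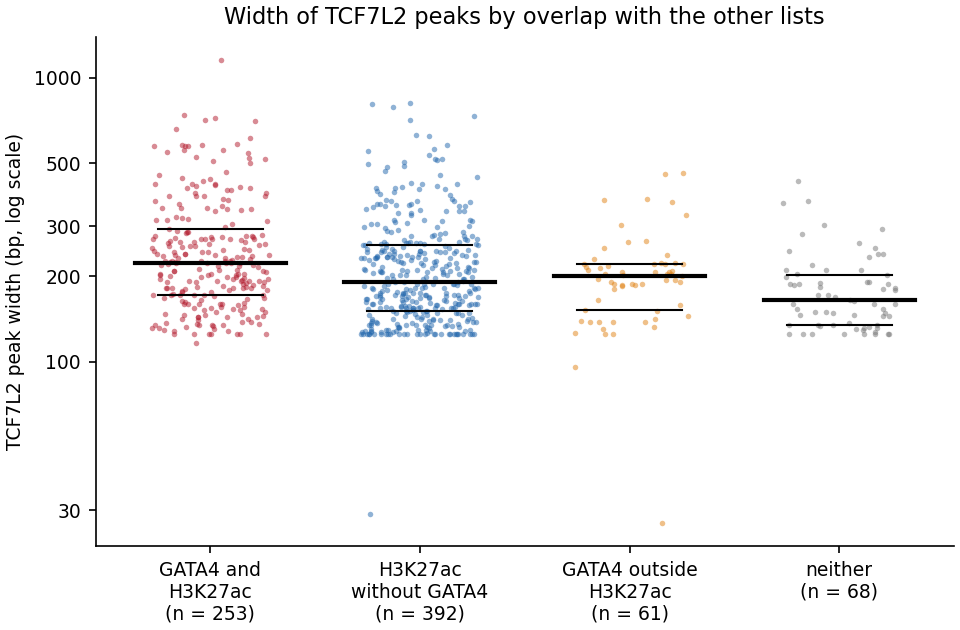
Width in bp on a log scale of every TCF7L2 peak, by its overlap with the other lists; points are single peaks, spread sideways for legibility, thick lines are medians and thin lines quartiles. The shared acetylated peaks have a median of 222 bp and reach 1155 bp, and the 4 classes overlap widely.

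The GATA4 peaks met by shared acetylated peaks were broader at the median than acetylated GATA4 peaks without TCF7L2. A wider GATA4 peak is met more readily, so this width is not independent of the choice and was not tested. The 256 GATA4 peaks under shared acetylated peaks had a median width of 260 bp, with quartiles of 177 and 384.5 bp. The 8101 acetylated GATA4 peaks without TCF7L2 had a median of 194 bp, with quartiles of 145 and 268 bp. GATA4 peaks paired with TCF7L2 outside H3K27ac had a median of 216 bp. Among acetylated GATA4 peaks, the share that met a shared acetylated peak was 1.91%, 2.05% and 2.30% in the 3 lower quartiles of width, and 123 of 2077, 5.92% (4.99 to 7.02), in the broadest, from 273 to 1493 bp. The intervals of the 3 lower quartiles ran from 1.41 to 3.03 over all. They hold counting error over peaks only, and no test was made. The widest GATA4 peak in a shared acetylated pair was the one of 833 bp on chromosome 11 named above.

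The H3K27ac peaks around them were broad, as were those around TCF7L2 without GATA4. Below, the H3K27ac peak that a TCF7L2 peak lies in is called its host. Hosts of shared acetylated peaks had a median width of 7626 bp, with quartiles of 4083 and 16846 bp, against 6899.5 bp (3405.5 and 16512 bp) for acetylated TCF7L2 without GATA4. The broadest host was 97.6 kb with GATA4 and 225.0 kb without. The median of the H3K27ac list was 1287 bp. The host belonged to the widest 10% of H3K27ac peaks in 126 of the 253, 49.8% (43.7 to 55.9), and in 180 of the 392, 45.9% (41.05 to 50.9), where all acetylated TCF7L2 peaks together gave 47.4%. A broad interval is met more often by any list, so the distance of both curves from the H3K27ac list is no finding about TCF7L2. From the narrowest to the broadest quartile of host width, GATA4 was present at 33.3%, 41.7%, 42.1% and 39.75% of acetylated TCF7L2 peaks. With intervals of 26.5 to 40.9 in the narrowest quartile and 32.5 to 47.5 in the broadest, no trend with host width could be read at this number of peaks.

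**Figure D4:**
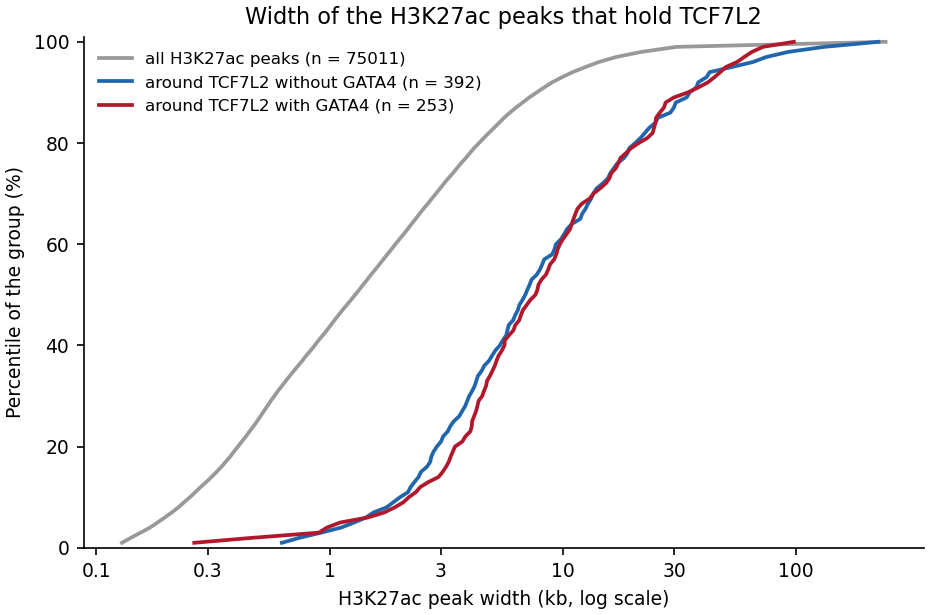
Percentile within each group against the width in kb, on a log scale, of the H3K27ac peaks around the 253 TCF7L2 peaks with GATA4 (red), around the 392 without (blue), and of all 75011 H3K27ac peaks (grey). The red and blue curves lie close together except at the narrowest and the broadest hosts, with medians of 7626 and 6899.5 bp. The grey curve lies far to their left with a median of 1287 bp.

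The broadest hosts of shared acetylated peaks carried several GATA4 peaks, and a broad interval meets more peaks of any list. At chr5:125655520-125655952 the host of 97.6 kb held 3 GATA4 and 2 TCF7L2 peaks. At chr14:55585559-55585694, 136 bp of TCF7L2 lay inside a GATA4 peak of 826 bp, the widest of the 12 GATA4 peaks in a host of 74.5 kb. The peak at chr6:121060256-121060678 lay at 0.867 of the way from the centre of its host of 73.99 kb to the border. It was 4927.5 bp from that border and met 1 of the 5 GATA4 peaks there. At chr2:163223651-163223775 the host of 70.1 kb held 7 GATA4 peaks, of which the one met by TCF7L2 shared 24 bp with it. The peak at chr8:129051394-129051602 lay at the very centre of its host of 66.5 kb, at 0.0088 of the way to its border.

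Most hosts held 1 GATA4 peak only. This was so for 179 of the 253, while 38 had 2 GATA4 peaks in the host, 21 had 3 and 13 had 4 or more. For the remaining 2, the TCF7L2 peak reached into H3K27ac while the GATA4 peak it met lay outside. At least 1 GATA4 peak in the host is thus nearly given by the choice of peaks. Taken per GATA4 peak, hosts held a median of 1, with quartiles of 1 and 2. This was the same for acetylated GATA4 peaks without TCF7L2 and for those met by shared acetylated peaks. For 72 of the 253 the host held several GATA4 peaks, including the paired one, which shared the most bp with TCF7L2. The paired peak was the widest GATA4 peak of the host in 41 of 72, 56.9% (45.4 to 67.7). Paired peaks were 72 of the 210 GATA4 peaks in these hosts, 34.3%, leaving out any further GATA4 peak that TCF7L2 also met. This pooled share is not what a random pick within each host would give, and that value was not computed. A wider GATA4 peak is met more readily, and the share of 56.9% was not tested apart from width. A further GATA4 peak lay within 10 kb of 68 of the 253, 26.9%, and of 107 of the 392 TCF7L2 peaks in H3K27ac without GATA4, 27.3%.

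Within the host, shared acetylated peaks were placed at values close to those of the other acetylated TCF7L2 peaks. Of the 253, 238 lay wholly inside the host, and the midpoint was a median of 2094.5 bp from its nearer border. As a fraction of the way from the host's centre to its border, their median position was 0.420, against 0.409 for acetylated TCF7L2 without GATA4 and 0.373 for acetylated GATA4 without TCF7L2. In the inner 50% of the host lay 152 of the 253, 60.1% (53.9 to 65.9), and 233 of the 392, 59.4% (54.5 to 64.2), where all acetylated TCF7L2 peaks gave 59.7%. The GATA4 midpoint was nearer the host's centre than the TCF7L2 midpoint in 129 of 253 cases, so neither factor was regularly the nearer one. A second TCF7L2 peak in the host was found for 16 of the 253 and 39 of the 392, where all acetylated TCF7L2 peaks gave 8.53%.

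On a larger scale, shared acetylated peaks were found in both short and long runs of acetylation. A stretch here merges neighbouring H3K27ac peaks at the default stitching distance of the ROSE procedure for super-enhancers. The longest 5% of stretches, those of 89.99 kb or more, are called long. The stretch around a shared acetylated peak had a median length of 39.6 kb and joined a median of 5 H3K27ac peaks, against 49.8 kb and 7 for acetylated TCF7L2 without GATA4. Over all stretches the median length was 5050 bp. A long stretch is met more often by any list, so the distance of both classes from that value is no finding about TCF7L2. In a long stretch lay 78 of the 253, 30.8% (25.5 to 36.8), and 138 of the 392, 35.2% (30.6 to 40.05), where all acetylated TCF7L2 peaks gave 33.5%. The intervals overlap and the share is close to that of all acetylated TCF7L2 peaks. The 78 were spread over 73 of the 1036 long stretches. At the other end, the host stood alone as its own stretch for 59 of the 253, 23.3% (18.5 to 28.9), and for 70 of the 392, 17.9% (14.4 to 21.95). These intervals overlap, and no difference between the classes is read from them. The gap from the host to the next H3K27ac peak had a median of 1857 bp against 1365 bp, with 1518 bp over all acetylated TCF7L2 peaks.

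Chromosomes differed in number more than in share. Chromosome 11 had the most shared acetylated peaks, 22, and the most per Mb, 0.185, ahead of 0.174 on chromosome 17 and 0.172 on chromosome 19. The X chromosome had the fewest per Mb, 0.0367, with 6 peaks. As a share of acetylated TCF7L2 peaks the order was another one. It was highest on chromosome 14, where 12 of 20 had GATA4, 60% (38.7 to 78.1), and lowest on chromosome 18, with 4 of 18, 22.2% (9.0 to 45.2). Chromosome 11 had 36.1% (25.2 to 48.6) and X 40.0% (19.8 to 64.25), near the 39.2% over all chromosomes. The intervals of the highest and the lowest chromosome overlap, and with so few peaks per chromosome no order in share could be read.

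The choice at 1 bp also admitted peaks with little overlap. Requiring 50% of the TCF7L2 peak to be covered by GATA4 and by H3K27ac left 185 of the 253. Least overlap was found at chr11:77795306-77795435, where TCF7L2 and GATA4 shared 3 bp, followed by chr15:5066249-5066442 with 6 bp and chr7:80682749-80682936 with 11 bp. Just outside lay a peak of 29 bp at chr6:124691401-124691429, which was in H3K27ac and missed GATA4 by 1 bp, and one at chr13:52860920-52861189, which missed GATA4 by 6 bp. Another, at chr13:84487720-84487857, had GATA4 and missed H3K27ac by 8 bp. Less than 50% of the TCF7L2 peak was covered by GATA4 in 63 of the 253, 24.9%.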

How the data were processed

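The authors deposited 1 interval list per antibody, with chromosome, start and end in bp (mm9) and no other column. Per the submitters' processing notes, the tools included MACS2 2.1.1.20160309.0, deepTools, FastQC 0.10.0 and Bowtie2 2.2.6.2, listed without their roles. The peak threshold and the way replicates were combined are not stated in the labels, and the input was not analysed here. The overlap classes, the regions named and the measures were chosen with earlier results of these data known. Regions were named by rule: the 10 widest, the 10 with the nearest midpoints, the 5 in the widest and the 5 in the narrowest H3K27ac peaks, those with 2 or more GATA4 peaks, those sharing an H3K27ac peak, and the 3 just inside and 3 just outside the overlap rule. Where several GATA4 peaks overlapped, the one with the most shared bp was paired. With 1 list per antibody, differences are described by medians, quartiles and 95% Wilson intervals, and no test was made. Functions were tested on simulated intervals. No genome or annotation of mm9 was used, so genes, motifs and sequences are not reported. Python 3.11.15, numpy 2.4.6, pandas 2.3.3 and scipy 1.17.1 were used.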

Additional observations from a re-analysis of the deposited data

How the results depend on the processing

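Other settings gave 94 values, of which 81 had been planned and 13 were added later. Of these, 80 stayed within the 95% interval of the reported value (Wilson for shares, order statistics for medians) or, for the number of peaks, within 1.5 times it. Across the other overlap rules the number of shared acetylated peaks was 185 to 293. Keeping GATA4 peaks of the median width or wider gave 183, and the same cut on H3K27ac gave 238. With only GATA4 peaks that overlap H3K27ac it was 251. Keeping TCF7L2 peaks of the median width or wider left 150 shared acetylated peaks, fewer by construction. It set the median widths at 273 bp for them, 260.5 bp in H3K27ac without GATA4 and 220 bp with GATA4 outside H3K27ac. The share with both borders matching outside H3K27ac was then 41.9%, the median host without GATA4 was 5833 bp, and a second TCF7L2 peak in the host was found for 2.67% with and 6.92% without GATA4. Requiring coverage of 50% of the TCF7L2 peak lowered the median midpoint distance to 42.5 bp, since it removes distant pairs. Joining H3K27ac across 1 kb gave a median host without GATA4 of 8040.5 bp. Taking the longest 10% of stretches put 42.3% of shared acetylated peaks and 48.98% of those without GATA4 in long stretches. With border tolerances of 5 and 20 bp, added later, the matching share outside H3K27ac was 8.20% and 45.9%, against 0.395% and 2.37% in shared acetylated peaks. No paired analysis was possible because each antibody has 1 list, and no replicate could be left out for the same reason. The planned motif and gene settings were not run without an mm9 genome. The lists hold no read counts, so the effect of depth was not tested.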
